A study of Rattus norvegicus with 15 samples.

Results

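The genes described here encode the extracellular matrix of 2 great vessels of the rat around birth: collagens, laminins, fibulins, fibrillins, latent TGF-beta binding proteins and 15 further matrix genes chosen by name (elastin, fibronectin, Efemp1, Tnc, Sparc, Spp1, Mgp, Postn, Lox, Acan, Vcan, Dcn, Bgn, Lum and Ecm1). Members were taken by gene symbol from the probe sets assigned to a single gene. The rule itself uses no measured value, but it was drawn up with earlier results of these data known. This gave 56 genes, read by 116 probe sets, of the 10969 named genes on the arrays. They were grouped by role into 8 fibrillar collagens, 5 network collagens of basement membrane (type IV), 13 other collagens, 6 laminin chains, 12 elastic fibre genes, 5 proteoglycans and 7 matrix glycoproteins.

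Before birth the ductus arteriosus carries blood from the pulmonary artery into the aorta, and it closes in the hours and days that follow birth, while the aorta keeps its width and takes the full arterial pressure. Fibrillar collagens give a vessel wall tensile strength, elastin laid on fibrillin microfibrils gives it recoil, and laminins with type IV collagen form the basement membrane around endothelial and smooth muscle cells. In the ductus the inner layer thickens before closure into cushions of matrix through which smooth muscle cells migrate, and elastic fibre assembly there is known to be poorer than in the neighbouring aorta.

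RNA of 5 states was hybridised to Affymetrix rat chips of 3 types, named A, B and C, and each state had a single array of each type (15 arrays). The fetal ductus and the fetal aorta (arch and thoracic sections) came from fetuses at day 19 of gestation, taken by caesarean section from dams breathing normal air. The oxygen ductus came from day 19 fetuses whose mothers had been kept in 100% oxygen for 3 h. The newborn ductus and newborn aorta were taken 3 h after vaginal birth, so birth, age and delivery route differ together, and the dissection medium was gassed with 2.5% oxygen for fetuses and 12.5% for newborns. Strain and sex are not given in the sources used here, nor is the number of animals behind an array, and for the chip A array of newborn aorta the title reads 3 h post coitum where the description gives newborn. Values are signal intensities on a linear scale. A signal under the median of its chip type (149.8 on A, 241.7 on B and 243 on C) was set to that floor, each gene took the values of its brightest probe set, and it counted as measured in a pair of states if it was above the floor in at least 1 of them. With 1 array on each side a ratio has no test, and the number of arrays limits its precision. From the interaction of vessel and stage over all probe sets, the standard deviation of the log2 ratio of an unchanged gene was estimated as 0.296 for chip type A, 0.332 for B and 0.295 for C. A member is therefore called higher or lower here at 1.5-fold or more, and its count is set beside the percentage of all measured named genes that pass the same fold. The comparisons share arrays, so they are not independent of each other.

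All 7 smooth muscle markers on the chips were above the floor in every state, with a summed signal of 43198 in the fetal aorta, 59228 in the newborn aorta, 65208 in the fetal ductus, 68612 in the oxygen ductus and 98851 in the newborn ductus. Other tissues were in the samples to unequal degree. Heart muscle markers summed to 38168 in the fetal ductus and 36485 in the oxygen ductus (11 of 12 above the floor in each), against 18151 to 24582 in the other 3 states. Fat markers summed to 10992 in the newborn aorta (7 of 8 above the floor) against 2411 to 4077 elsewhere, and Adipoq and Ucp1, which define fat and brown fat, were above the floor in the newborn aorta alone. The fetal aorta had the highest sums of nerve markers (2228 against 601 to 1039) and leukocyte markers (6717 against 4043 to 4818). Fibroblast markers summed to 8882 to 11886, endothelial markers to 7699 to 11957, mesothelial markers to 1098 to 2562, erythroid markers to 29309 to 47251 and epithelial markers to 1998 to 2648. In such whole-vessel RNA, fewer cells of a type and less RNA per cell cannot be told apart. The part of these other tissues in the results was not tested. The 3 oxygen ductus arrays also stood apart in RNA integrity: the signal at the 5 prime end of the beta-actin control transcript was 0.307 to 0.393 of that at its 3 prime end, against 0.662 to 0.84 on the other 12 arrays. For GAPDH the ratio was 0.401 to 0.592 on the oxygen arrays and 0.633 to 0.793 on the others.

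Type I collagen and elastin were at much the same level in all states. Of the 56 genes, 42 were above the floor in all 5 states and 10 in 1 to 4 states. The remaining 4 (Col4a4, Col7a1, Col13a1 and Lama3) were above it in none. At their brightest probe sets 19 genes stayed within 1.5-fold in all 6 comparisons: Bgn, Col1a1, Col1a2, Col3a1, Col4a1, Col4a2, Col5a1, Col5a2, Col6a2, Eln, Fbln1, Fbln5, Fbn1, Fn1, Lamc1, Lox, Ltbp1, Ltbp3 and Postn. These include both chains of type I collagen, the main load-bearing fibril, and elastin. The share of all named genes that stayed within 1.5-fold throughout was not computed. Col4a3 and Col10a1 were also within 1.5-fold wherever they were measured, but were not measured in every comparison. The other measured genes were at least 1.5-fold apart in 1 or more comparisons. With all probe sets of a gene averaged, Bgn, Col3a1, Col6a2, Fn1 and Lox of the 19 also passed 1.5-fold in 1 or more.

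The type I collagen chain Col1a1 read 25843, 22162 and 29662 in the fetal, oxygen and newborn ductus, and 29362 and 27336 in the fetal and newborn aorta. Its partner chain Col1a2 was at 50548 in the fetal, 44264 in the oxygen and 46784 in the newborn ductus, and at 38868 and 41597 in the fetal and newborn aorta. Type III collagen, which co-assembles with type I in distensible walls, was read through Col3a1 at 15854, 14736 and 20414 in the fetal, oxygen and newborn ductus and at 18055 and 19495 in the fetal and newborn aorta. At these probe sets no vessel or stage stood apart in any of the 3. The other 3 probe sets of Col3a1 had log2 ratios of fetal ductus to fetal aorta of -0.70, -0.78 and -1.51 (3259 against 9299 for the last, with a limma adjusted p of 0.463 for vessel). With all its probe sets averaged Col3a1 was at least 1.5-fold lower in the fetal ductus. The type V chains, which set fibril diameter, were within 1.5-fold at their brightest probe sets: Col5a1 ranged from 5019 in the oxygen ductus to 6925 in the fetal aorta, and Col5a2 from 5627 in the oxygen ductus to 8293 in the fetal aorta. A dimmer Col5a2 probe set had a log2 ratio of -0.63 in the fetal pair.

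Elastin, which gives the wall its recoil and was read by a single probe set, was also even. Eln was at 25913 in the fetal, 21939.6 in the oxygen and 27373 in the newborn ductus, against 25859 in the fetal and 29193 in the newborn aorta. Its log2 ratio of ductus to aorta was 0.003 in the fetus and -0.093 in the newborn, each well inside the estimated error of a ratio. Fbln5, which links elastin to cells and is needed for fibre assembly, ranged from 16148 to 17576 over the 5 states. The cross-linking enzyme Lox ranged from 13748 in the fetal aorta to 17825 in the newborn aorta, and fibrillin-1 (Fbn1), the main microfibril protein, from 8087 in the newborn aorta to 11012 in the oxygen ductus. One dimmer Lox probe set stood apart, at 341.9 in the newborn ductus against 1369 in the newborn aorta. Ltbp1 and Ltbp3, which tether latent TGF-beta to microfibrils, ranged from 2507 to 3046 and from 3196 to 5272.

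**Figure D1:**
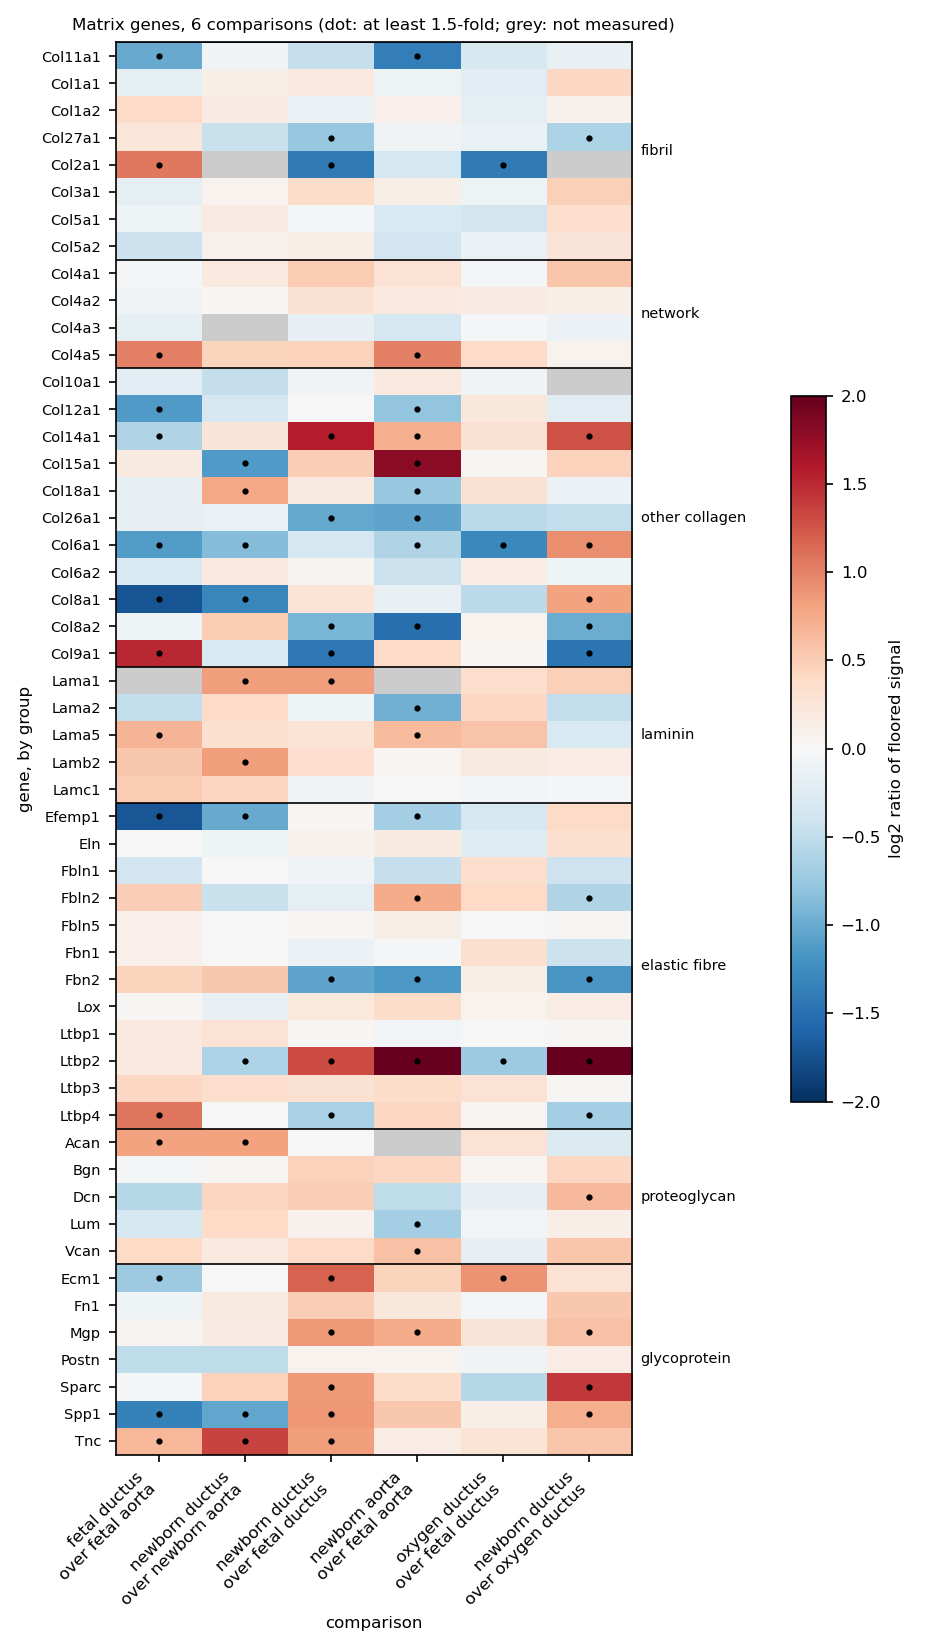
Colour map of the log2 ratio (floored signal, colour scale from -2 to 2) of the 52 measured matrix genes, in rows by group, in the 6 comparisons, in columns. Black dots mark ratios of at least 1.5-fold and grey cells pairs in which the gene was under the floor on both arrays; the other collagens hold more dots than any other group, and the fibrillar collagens are mostly pale.

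Ductus and aorta were compared at each stage to see which matrix genes set the 2 vessels apart. In the fetus the ductus had less Col8a1, Efemp1, Spp1, Col12a1, Col6a1, Col11a1, Ecm1 and Col14a1 than the aorta and more Col9a1, Ltbp4, Col2a1, Col4a5, Acan, Lama5 and Tnc. In the newborn it had less Col8a1, Col15a1, Spp1, Efemp1, Col6a1 and Ltbp2 and more Tnc, Lamb2, Lama1, Acan and Col18a1. At both stages 4 genes were lower in the ductus (Col6a1, Col8a1, Efemp1 and Spp1) and 2 were higher (Acan and Tnc). The share of all named genes that passed the same way at both stages was not computed.

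Of the 51 members measured in the fetal pair, 7 favoured the ductus by at least 1.5-fold and 8 the aorta, or 13.7% and 15.7%, against 4.2% and 5.1% of all measured named genes. The median log2 ratio was -0.04 for the members and -0.02 for all genes. In the newborn pair 5 of 50 members were higher and 6 lower, or 10% and 12%, beside 6.16% and 5.98% of all genes, with medians of 0.10 and -0.01.

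Among the collagens, Col8a1, a short-chain collagen made by vascular smooth muscle and endothelium, differed most. Its signal was 216.3 in the fetal ductus and 261 in the newborn ductus but 713.8 in the fetal aorta and 644.6 in the newborn aorta, and under the floor, at 119, in the oxygen ductus. Both aortic values were above all ductus values, with ratios of 3.30-fold in the fetus and 2.47-fold in the newborn. Col6a1, a chain of the beaded filaments that surround cells, was at 592 before and 461.8 after birth in the ductus, and at 1283 and 841.8 in the fetal and newborn aorta. It was thus 2.17-fold and 1.82-fold lower in the ductus, whereas its partner chain Col6a2 was within 1.5-fold (log2 ratios of -0.30 and 0.19).

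The fibril-associated collagen XII, read through Col12a1, stood out in a single state. Its signal was 1077 in the fetal aorta and between 493.2 and 623.6 in the other 4 states, which made the fetal ductus 2.18-fold lower than the fetal aorta. Col11a1, a minor fibrillar chain, had the same shape, at 2692 in the fetal aorta and from 980.5 to 1344 elsewhere, a 2.00-fold difference in the fetus. A dimmer probe set of Col11a1 was also highest in the fetal aorta (336.2 against 101.7 in the fetal ductus), but another was higher in the fetal ductus (756.4 against 572.6).

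Col15a1 and Col18a1, the 2 multiplexin collagens of basement membrane zones, were at least 1.5-fold apart between the newborn vessels, in opposite directions. Col15a1 was at 578.9 in the newborn ductus and 1266 in the newborn aorta, 2.19-fold lower in the ductus. Col18a1 was at 1868 and 1092, 1.71-fold higher in the ductus. In the fetus their log2 ratios were 0.18 and -0.16, and the change of these ratios with stage was not tested. Col15a1 was highest in the state with the highest sum of fat markers (10992 in the newborn aorta), whose part was not tested.

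Col9a1, Col2a1 and Acan, which are best known from cartilage, were more abundant in fetal ductus than in fetal aorta. Col9a1, a collagen that decorates type II fibrils, gave 1011 in the fetal and 1033 in the oxygen ductus but 375.3 in the newborn ductus, 356.1 in the fetal aorta and 465.9 in the newborn aorta. It was 2.84-fold higher in fetal ductus than in fetal aorta, and the 2 fetal ductus states lay above the other 3. Col2a1, the main cartilage fibril, was at 397.2 in the fetal ductus and 192.1 in the fetal aorta (2.07-fold) and under the floor in the oxygen ductus and both newborn vessels (43 to 138.7). Acan, the large cartilage proteoglycan, was at 260.8, 317.5 and 262.2 in the fetal, oxygen and newborn ductus and at 17.5 and 14.4 in the aortas, so that it was at least 1.74-fold and 1.75-fold higher in the ductus at the 2 stages. Of 5 cartilage markers on the chips, only Cnmd was above the floor, at 237.6 in the fetal and 306.3 in the oxygen ductus, and the marker sum was 445.9 and 459.5 there against 190.1 to 229.4 in the other states. Matn1, Comp, Chad and Snorc were under the floor in every state. The part of cartilage in these values was not tested. A second probe set of Col9a1, and one of Col2a1, stayed under the floor throughout.

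Of the basement membrane genes, Col4a5 was at 1259 in the fetal ductus and 629.3 in the fetal aorta, a 2.00-fold difference, and at 1728 and 1272 after birth. The more abundant pair Col4a1 and Col4a2 showed no such difference, with log2 ratios of -0.04 and -0.07 in the fetus and 0.19 and 0.03 in the newborn. Col4a1 ranged from 8900 in the oxygen ductus to 13062 in the newborn ductus, and Col4a2 from 8474 in the fetal ductus to 10435 in the newborn ductus. Of the laminin chains, Lama5 was at 3592 in the fetal ductus and 2244 in the fetal aorta (1.60-fold), Lamb2 at 1638 in the newborn ductus and 918.5 in the newborn aorta (1.78-fold), and Lama1 at 266.3 in the newborn ductus with the newborn aorta under the floor (at least 1.78-fold). Lamc1, the shared gamma chain, was at 6809.5 and 6497 in the fetal and newborn ductus and at 4813 and 4822 in the aortas, which is under 1.5-fold at both stages. In the newborn the log2 ratios of Lama5, Lamb2 and Lamc1, which were above the floor in both vessels, were 0.32, 0.83 and 0.43. Lama1 and Lama2 were above the floor in the newborn ductus and under it in the newborn aorta, so the floor fixed the sign of their ratios. In the fetus Lama2 had a log2 ratio of -0.49.

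Of the 12 elastic fibre genes 10 had log2 ratios above 0 in the fetus and 7 in the newborn, with medians of 0.15 and 0.01. The error of a median over these 12 genes was not estimated. The difference between the stages was not tested, and most of the dimmer probe sets of Lox and Fbn1 were below 0 in the fetus. Efemp1 (fibulin-3), an elastic fibre and basement membrane protein, was lower in the ductus. It gave 191.1, 101.2 and 195 in the fetal, oxygen and newborn ductus and 625.9 and 390.2 in the fetal and newborn aorta, 3.28-fold and 2.00-fold lower in the ductus. Ltbp4, which is needed to deposit fibulin-5 and elastin, was at 10037 in the fetal and 10263 in the oxygen ductus, against 4758 in the fetal aorta and 6380 and 6319 in the newborn ductus and aorta. It was 2.11-fold higher in the fetal ductus, and its log2 ratio in the newborn was 0.01. Fbln1 and Fbln2 were under 1.5-fold at both stages, with Fbln1 at 1656 and 1577 in the ductus and 2150 and 1565 in the aorta, and Fbln2 at 19254 and 16835 in the ductus and 13648 and 22837 in the aorta.

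Among the glycoproteins Tnc, Spp1 and Ecm1 were at least 1.5-fold apart between the vessels at 1 or both stages. Tnc (tenascin-C), an anti-adhesive protein of migrating and remodelling cells, was at 547.8, 665.7 and 982.5 in the fetal, oxygen and newborn ductus and at 347.2 and 386.8 in the fetal and newborn aorta. All 3 ductus values were above both aortic ones, with ratios of 1.58-fold in the fetus and 2.54-fold in the newborn. A dimmer Tnc probe set read 361.1, 226.1 and 381.6 in the fetal, oxygen and newborn ductus and 316.9 and 242.6 in the fetal and newborn aorta. Its oxygen value lay under both aortic ones, its log2 ratios were 0.19 and 0.65, and with all probe sets averaged Tnc passed 1.5-fold in the newborn pair but not in the fetal one. Spp1 (osteopontin), a secreted protein of bone, macrophages and activated smooth muscle, was lower in the ductus, at 754.2, 823.5 and 1369 against 1921 and 2801 in the aortas, or 2.55-fold and 2.05-fold. The bone marker Ibsp was above the floor in the fetal aorta alone (349.6, with the sum of 4 bone markers at 670.7 against 189.8 to 242.7), and leukocyte markers were highest there too. Their part in the Spp1 and fetal aorta values was not tested; in the newborn aorta, where Spp1 was highest, no bone marker passed the floor. Postn (periostin), a protein of valves and cushions, was at 3420 and 3606 in the fetal and newborn ductus and at 4883 and 5133 in the aortas, with log2 ratios of -0.51 at both stages, just under the fold used. Ecm1 was 1.65-fold and Col14a1 1.51-fold lower in the fetal ductus.

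**Figure D2:**
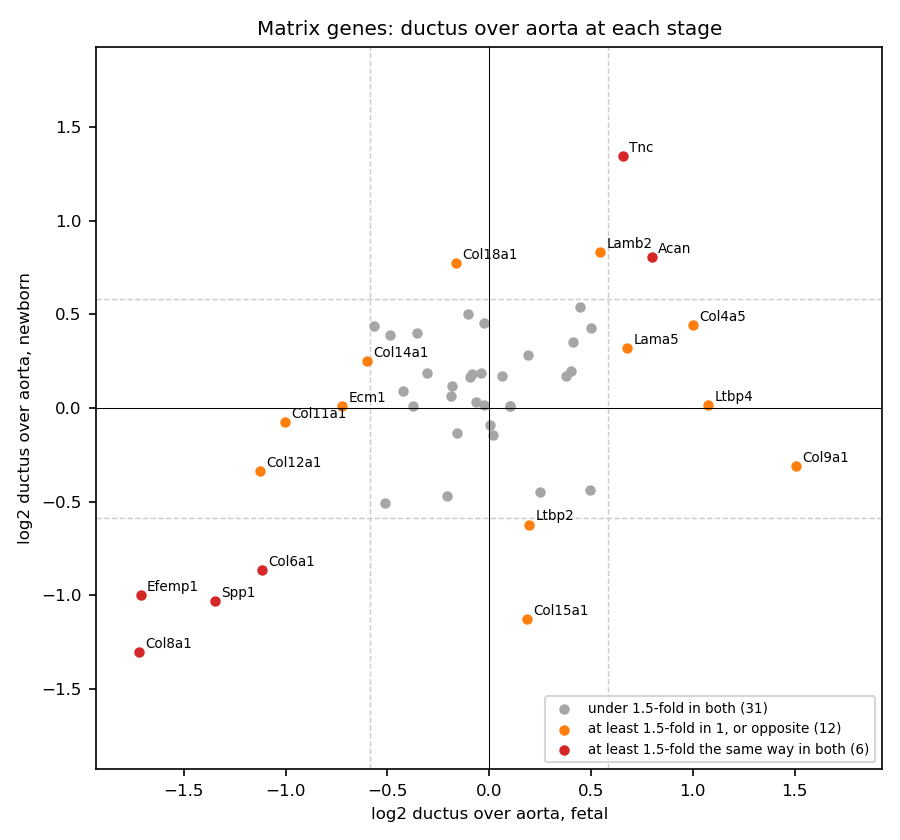
Each point is a matrix gene, with the log2 ratio of ductus to aorta in the fetus on the x axis and in the newborn on the y axis (49 genes measured in both pairs). Dashed lines mark 1.5-fold; Tnc and Acan lie high on both axes, Col8a1, Efemp1, Spp1 and Col6a1 low on both, and 31 genes lie inside the lines on both.

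A joint fit of vessel and stage over the 4 states without oxygen (limma, with the interaction of vessel and stage as error) called 5 of 13810 probe sets for vessel, 0.0362%. Of the 98 member probe sets tested (51 genes) limma called 0, and 18 had an unadjusted p under 0.05 (18.4%), against 1070 of all probe sets (7.75%). The lowest Benjamini-Hochberg adjusted p from limma was 0.0853, for Col8a1 (log2 ductus over aorta -1.51, SE 0.21, lower at 2 of 2 stages). Spp1 (-1.19, SE 0.20) and Efemp1 (-1.36, SE 0.23) had an adjusted p of 0.111 in the same limma fit. With an intensity trend in the error model limma called 3 members (Col8a1, Efemp1 and Spp1), beside 65 of all 13810 probe sets. With a higher floor it called 2 others (Col6a1 and Tnc), beside 33 of 11135. The side of the threshold thus depended on the setting.

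Newborn and fetal vessels were compared to see how matrix expression differed a few hours after birth. In both vessels Ltbp2, Mgp and Col14a1 were at least 1.5-fold higher in the newborn and Fbn2, Col8a2 and Col26a1 at least 1.5-fold lower. In the ductus the glycoproteins Ecm1, Spp1, Sparc and Tnc were also higher, together with Lama1, and Col9a1, Col2a1, Col27a1 and Ltbp4 were lower. In the aorta Col15a1, Col4a5, Fbln2, Lama5 and Vcan were higher, and Col11a1, Lama2, Col12a1, Col18a1, Efemp1, Lum and Col6a1 were lower. The share of all named genes that passed the same way in both vessels was not computed.

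Of 52 members measured in the ductus pair, 8 were at least 1.5-fold higher in the newborn and 7 lower (15.4% and 13.5%), beside 7.56% and 9.59% of all measured named genes. The medians of the log2 ratio were 0.08 and -0.05. In the aorta 8 of 50 members were higher and 10 lower (16% and 20%), beside 7.57% and 11% of all genes, with medians of 0.09 and -0.05. The limma fit called 233 of 13810 probe sets for birth, 1.69%, and 6 of the 98 member probe sets, each of a different gene. By Benjamini-Hochberg adjusted p, Ltbp2 rose (log2 1.71, SE 0.24, adjusted p 0.0203), as did Col14a1 (1.15, SE 0.25, 0.0465). Fbn2 (-1.10, SE 0.22) and Col8a2 (-1.21, SE 0.24) fell, both with a limma adjusted p of 0.0355, and so did Col26a1 (-1.04, SE 0.19, adjusted p 0.0406). The sixth was a dimmer probe set of Fn1 (1.28, SE 0.20, adjusted p 0.0249), while the brightest Fn1 probe set stayed within 1.5-fold in both vessels. Each of these had its direction in 2 of 2 vessels. After quantile normalization none of the 6 passed (limma adjusted p from 0.0583 to 0.104, with log2 effects from -1.18 to 1.78), and each of the 6 kept its direction under all 6 alternatives of the fit. Fbn2 and Col8a2 passed in 5 of those 6, Ltbp2, Col14a1 and Fn1 in 4, and Col26a1 in 1. The highest adjusted p from limma over the alternatives was 0.0583 for Fbn2, 0.0632 for Col8a2 and 0.0915 for Ltbp2, all after quantile normalization.

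The upstream sequences of genes that moved the same way in both vessels are shown for the 3 of these members printed from the RefSeq promoter table (build GRCr8, the 250 bases before the annotated gene start, 5 prime to 3 prime on the gene's strand). Ltbp2, on chromosome 6, minus strand, is chr6:110257299-110257548; Col8a2, on chromosome 5, plus strand, is chr5:143870519-143870768; Col26a1, on chromosome 12, plus strand, is chr12:25429146-25429395. Capitals mark matches on either strand to 5 motifs. These were the TATA box with the letters TATAAA, the box named after its letters CCAAT, the GC box with the letters GGGCGG, the AP-1 motif with the letters TGANTCA (N stands for any base) and the core of glucocorticoid receptor sites with the letters TGTTCT.
Ltbp2: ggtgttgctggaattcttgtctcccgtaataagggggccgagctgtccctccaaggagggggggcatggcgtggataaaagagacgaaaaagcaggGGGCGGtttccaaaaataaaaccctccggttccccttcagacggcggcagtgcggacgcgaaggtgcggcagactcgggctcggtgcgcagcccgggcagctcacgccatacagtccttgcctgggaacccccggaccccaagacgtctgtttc
Col8a2: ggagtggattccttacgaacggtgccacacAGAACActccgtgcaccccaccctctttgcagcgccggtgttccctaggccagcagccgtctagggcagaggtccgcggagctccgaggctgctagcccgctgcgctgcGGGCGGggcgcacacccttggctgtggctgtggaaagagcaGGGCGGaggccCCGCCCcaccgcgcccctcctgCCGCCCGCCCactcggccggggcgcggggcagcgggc
Col26a1: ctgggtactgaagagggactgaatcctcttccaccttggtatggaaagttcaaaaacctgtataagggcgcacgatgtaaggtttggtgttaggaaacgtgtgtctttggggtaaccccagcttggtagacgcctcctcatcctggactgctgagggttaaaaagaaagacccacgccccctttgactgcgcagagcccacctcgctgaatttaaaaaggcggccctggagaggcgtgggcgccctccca

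The Col8a2 window held 5 GC boxes, some of which overlap, and 1 glucocorticoid core site. The Ltbp2 window held 1 GC box, and that of Col26a1 held none of the 5 motifs. GC boxes were in 24 of the 42 members with a complete window (57.1%) and in 30.5% of all 33465 windows in the table. The TATA box was in 7 of the 42 (16.7%, beside 12.9% of all), CCAAT in 10 (23.8%, beside 34%), the AP-1 motif in 4 (9.52%, beside 6.34%) and the glucocorticoid core site in 6 (14.3%, beside 17.5%). These matches describe letters in a window upstream of an annotated start and were not tied to the signals.

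Ltbp2, a microfibril-associated protein that unlike its relatives does not bind latent TGF-beta, had the largest newborn to fetal ratio of the members measured in the aorta. It gave 370.0 in the fetal, 224.1 in the oxygen and 909.4 in the newborn ductus, and 322.9 and 1400 in the fetal and newborn aorta. Both newborn values were above all 3 fetal ones, by 2.46-fold in the ductus and 4.34-fold in the aorta, and a second, dimmer probe set passed the floor in the 2 newborn states alone (177.6 and 290.4). The newborn ductus was 1.54-fold lower than the newborn aorta. Fbn2, the fibrillin of fetal and early microfibrils, went the other way, at 7843 and 8464 in the fetal and oxygen ductus, 3787 in the newborn ductus, 5759 in the fetal aorta and 2608 in the newborn aorta. The 3 fetal values were all above the 2 newborn ones, with ratios of 2.07-fold and 2.21-fold. Fbn1 was within 1.5-fold in each vessel at its brightest probe set (log2 ratios of -0.12 and -0.03). All 3 Fbn1 probe sets were below 0 in the aorta, and a dimmer one passed 1.5-fold there (4052 to 2282, log2 ratio of -0.83). In the ductus the log2 ratio of that probe set was -0.10.

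Of the other elastic fibre genes, Ltbp4, Fbln2 and Efemp1 were at least 1.5-fold apart in 1 vessel, and the difference between the vessels was not tested. Ltbp4 was 1.57-fold lower in the newborn than in the fetal ductus but had a log2 ratio of 0.41 in the aorta. Fbln2, a fibulin of cushions and elastic interfaces, was 1.67-fold higher in the newborn aorta (22837 against 13648) and had a log2 ratio of -0.19 in the ductus. Efemp1 was 1.60-fold lower in the newborn aorta and level in the ductus (0.03). Elastin had log2 ratios of 0.08 and 0.17 in ductus and aorta, and Lox of 0.21 and 0.37.

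**Figure D3:**
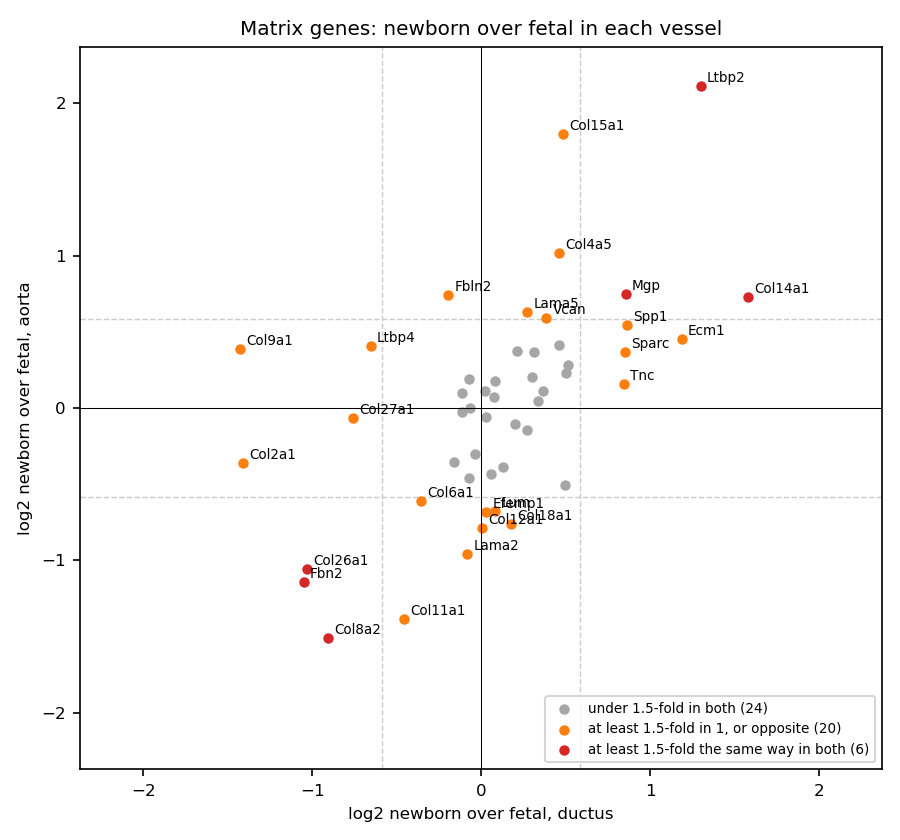
Each point is a matrix gene, with the log2 ratio of newborn to fetal vessel in the ductus on the x axis and in the aorta on the y axis (50 genes measured in both pairs). Dashed lines mark 1.5-fold; Ltbp2, Mgp and Col14a1 lie beyond them at the upper right, Fbn2, Col8a2 and Col26a1 at the lower left, and 24 genes lie inside them on both axes.

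Collagen differences at birth were spread over the minor types. Col14a1, a collagen that regulates fibril assembly, was at 1654 in the fetal, 2045 in the oxygen and 4937 in the newborn ductus, and at 2506 and 4152 in the fetal and newborn aorta, 2.98-fold and 1.66-fold higher after birth. Its other probe set, of similar brightness, did not follow: it read 1811 and 1663 in the fetal and newborn ductus and 2602 and 2219 in the aortas. The Col14a1 call therefore rests on 1 of 2 probe sets. Col8a2 was at 641.6, 676.7 and 341.9 in the fetal, oxygen and newborn ductus (1.88-fold lower after birth) and at 689.2 in the fetal aorta, with the newborn aorta under the floor at 130.4 (at least 2.85-fold lower). Col26a1, a little-studied collagen, was at 360.7, 247 and 176.5 in the fetal, oxygen and newborn ductus and at 402.5 and 193.6 in the aortas, 2.04-fold and 2.08-fold lower after birth.

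Other collagens were at least 1.5-fold apart in 1 vessel. Col15a1 was 3.48-fold higher in the newborn aorta (363.9 to 1266) and within 1.5-fold in the ductus (413.3 to 578.9). Col4a5 was 2.02-fold higher in the newborn aorta. Col11a1, Col12a1, Col18a1 and Col6a1 were 2.61, 1.73, 1.70 and 1.52-fold lower there. In the ductus Col9a1 was 2.69-fold lower after birth, Col2a1 at least 2.65-fold lower and Col27a1, a fibrillar collagen of cartilage, 1.69-fold lower (781.6 to 461.5). The heart muscle sum went the same way, from 38168 in the fetal to 18349 in the newborn ductus, and its part in the collagen values was not tested.

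At their brightest probe sets all 7 glycoproteins had log2 ratios above 0 in both vessels, with medians of 0.85 in the ductus and 0.37 in the aorta. In the ductus 5 were at least 1.5-fold higher, beside 7.56% of all measured named genes, and in the aorta 1 was, beside 7.57%. The difference between the vessels was not tested, and in the aorta Spp1 (1.46-fold) and Ecm1 (1.37-fold) lay just under the fold used. Mgp, an inhibitor of vascular calcification, was at 10276 in the fetal, 12334 in the oxygen and 18569 in the newborn ductus and at 9843 and 16521 in the fetal and newborn aorta, 1.81-fold and 1.68-fold higher after birth. Sparc, a collagen-binding protein of remodelling tissue, was at 14670.0 and 26399 in fetal and newborn ductus (1.80-fold) and at 14934 and 19256 in the aortas. All 7 Sparc probe sets were higher in the newborn ductus than in the fetal one, with log2 ratios from 0.25 to 1.51. Ecm1, which binds other basement membrane proteins, was at 1031, 1926 and 2346 in the fetal, oxygen and newborn ductus and at 1701 and 2328 in the aortas. The fetal ductus was thus the lowest of the 5 states, 2.28-fold under the newborn ductus. Spp1 was 1.82-fold and Tnc 1.79-fold higher in the newborn ductus, and in the aorta their log2 ratios were 0.54 and 0.16. The dimmer Tnc probe set had log2 ratios of 0.08 in the ductus (361.1 to 381.6) and -0.39 in the aorta (316.9 to 242.6). With all probe sets averaged Tnc no longer passed 1.5-fold in the ductus.

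Fn1 (fibronectin), the provisional matrix on which ductal smooth muscle cells migrate, was at 14088 in the fetal, 13704 in the oxygen and 19922 in the newborn ductus, and at 14961 and 17577 in the fetal and newborn aorta. Its log2 ratios of newborn to fetus were 0.50 and 0.23 at that probe set. The dimmer probe set called by limma read 300.7 and 798.7 in the fetal and newborn ductus and 504.8 and 1128 in the aortas. The other dimmer probe sets had log2 ratios of 0.15, 0.70, 0.71 and 0.87 in the ductus. In the aorta theirs were -0.04, 0.82, 1.28 and 0.03, in the same order, so the size depends on the probe set. With all probe sets averaged Fn1 passed 1.5-fold in the ductus but not in the aorta.

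Among the proteoglycans Bgn, Dcn, Lum and Vcan, which space collagen fibrils or bind hyaluronan, had ratios above 0 in the ductus, with a median of 0.39 over the 5 proteoglycans and none at 1.5-fold. Bgn was at 11391 and 15656 in the fetal and newborn ductus and at 11602 and 15459 in the aortas. Vcan was at 2077 and 2714 in the ductus and 1572 and 2365 in the aorta (just over 1.5-fold). Dcn at its brightest probe set read 6016 and 8494 in the fetal and newborn ductus and 8920 and 6275 in the aortas. All 5 Dcn probe sets were higher in the newborn ductus, whereas in the newborn aorta 3 were lower and the other 2 higher (log2 ratios of 0.48 and 0.58), so the opposite direction in the aorta depends on the probe set. Lum was 1.60-fold lower in the newborn aorta (4886 to 3059) and level in the ductus (3822 to 4042). Lama1, a laminin chain of early development, passed the floor in the oxygen and newborn ductus (191.2 and 266.3) and was at least 1.78-fold higher in the newborn than in the fetal ductus. Lama2, the chain of muscle basement membrane, was at 472.9 in the fetal aorta and under the floor in the newborn aorta, at least 1.95-fold lower. Lama5 was 1.55-fold higher in the newborn aorta.

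**Figure D4:**
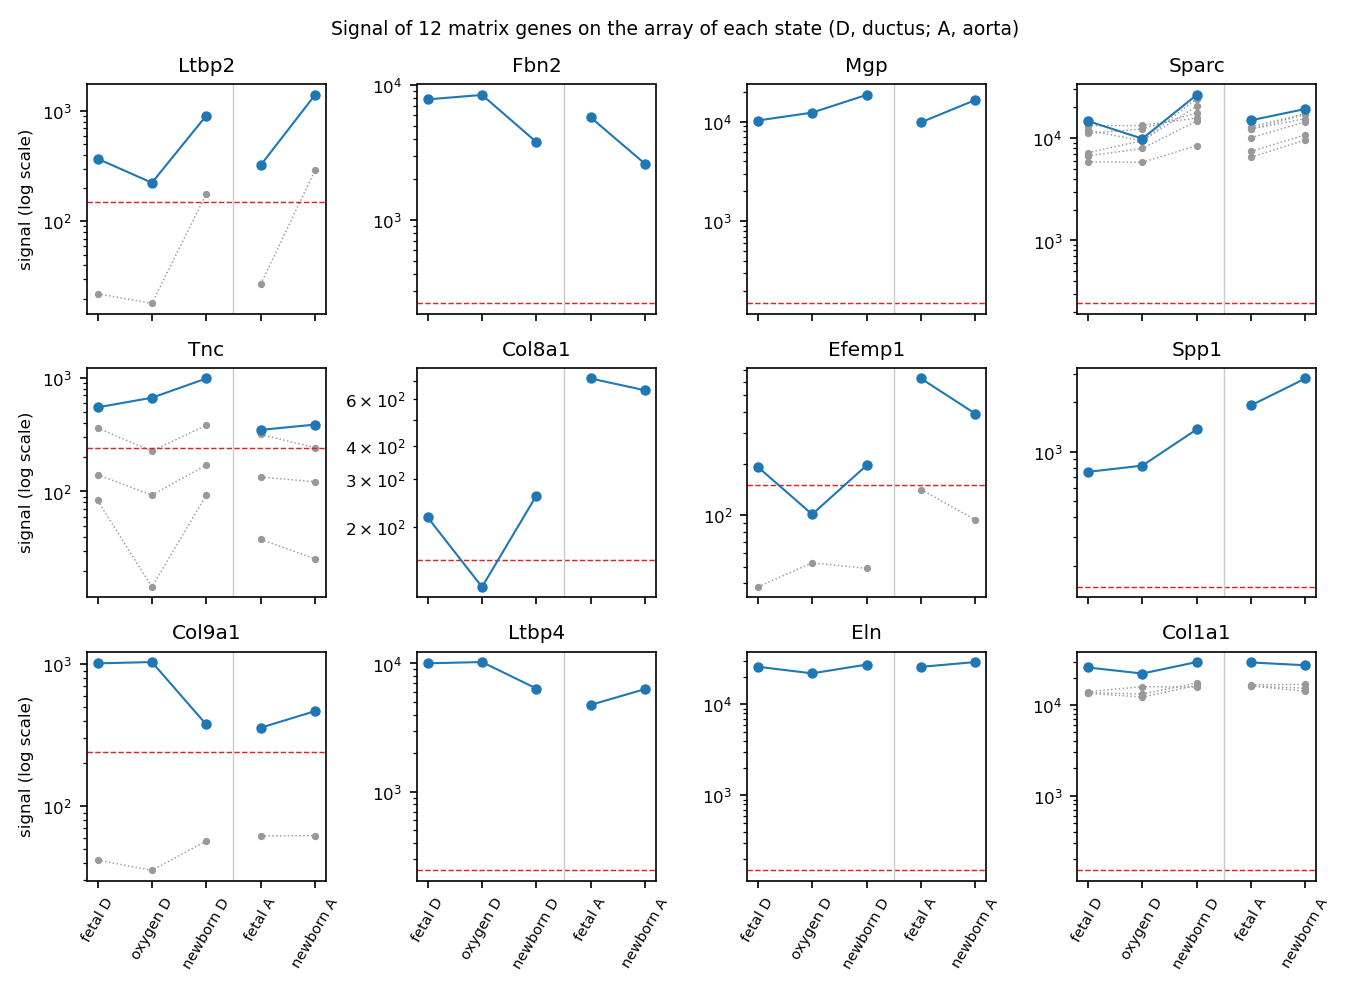
Signal (log scale) of 12 matrix genes on the array of each of the 5 states, 1 array per point; the solid blue line is the brightest probe set, grey dotted lines are the dimmer ones, and the red dashed line is the floor of the brightest probe set's chip type. Ltbp2 is highest and Fbn2 lowest in the newborn states, Col8a1, Efemp1 and Spp1 are higher in the aorta, Tnc is higher in the ductus at its brightest probe set, and Eln and Col1a1 are close to level.

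The oxygen ductus was compared with the fetal ductus because the mothers were made hyperoxic to imitate newborn conditions before birth. The matrix genes hardly differed between the 2 states when read at their brightest probe sets. Ecm1 was 1.87-fold higher, and Ltbp2 was 1.65-fold, Col6a1 at least 2.45-fold and Col2a1 at least 2.65-fold lower. The 8 fibrillar collagens all had log2 ratios below 0 at these probe sets, with a median of -0.21. The lowest was that of Col2a1 (-1.41, set by the floor). The sign depended on the probe set for some. It held in 2 of 6 probe sets of Col1a2, 3 of 4 of Col1a1 and 2 of 3 measured ones of Col11a1.

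Of 52 measured members 1 was higher and 3 were lower (1.92% and 5.77%), beside 4.44% and 5.38% of all measured named genes, and the medians were 0.02 and 0.04. The share of higher members was under that of all genes, and the share of lower members was close to it. Ecm1 was nearer to the newborn ductus than to the fetal one (1031, 1926 and 2346 in the fetal, oxygen and newborn ductus). Ltbp2 was on the opposite side of the fetal ductus from the newborn one, at 224.1 in the oxygen, 370.0 in the fetal ductus and 909.4 after birth. Mgp, Tnc, Spp1, Fbn2, Col8a2 and Col9a1 were within 1.5-fold of the fetal ductus, with log2 ratios of 0.26, 0.28, 0.13, 0.11, 0.08 and 0.03. Col26a1, at 247, lay between the fetal and newborn ductus.

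At their brightest probe sets the remaining core members were also within 1.5-fold of the fetal ductus under oxygen. Among collagens, Col6a2 was at 8561 in the oxygen and 7710 in the fetal ductus, Col12a1 at 578.7 and 493.2, Col15a1 at 420.4 and 413.3, and Col18a1 at 2031 and 1652. Laminins were level or slightly higher at these probe sets, with Lama2 at 448.9 and 337 and Lama5 at 5357 and 3592. Lamb2 was at 1471 and 1299.5, and Lamc1 at 6585 and 6809.5. A dimmer Lama5 probe set went the other way, at 22.7 (under the floor) and 261.6, as did one of Lamb2, at 355.5 and 764.7. Of the dimmer Lamc1 probe sets one was at 931.7 and 2067 and another at 4760 and 3901. Fbln1 was at 2106 and 1656, Fbln2 at 25414 and 19254 and Postn at 3249 and 3420. The proteoglycans Bgn, Dcn, Lum and Vcan were at 11721, 5395, 3673 and 1852, with log2 ratios of 0.04, -0.16, -0.06 and -0.17.

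Some dimmer probe sets of the same genes gave lower oxygen to fetal ratios than the brightest. Of 46 dimmer member probe sets 17 had an oxygen to fetal ratio at least 1.5-fold under that of the gene's brightest probe set (37%), beside 20.2% of all 3345 dimmer probe sets. The ratio was at least 1.5-fold above that of the brightest in 5 of the 46 (10.9%, beside 8.31% of all), and the median log2 difference from the brightest was 0.05 for the members and -0.13 for all. In the newborn to fetal comparison of the ductus these shares were 12.2% (6 of 49) and 9.7%. One dimmer Fn1 probe set was at 616.1 in the oxygen and 2650 in the fetal ductus, while the brightest read 13704 and 14088. A dimmer Col3a1 probe set read 674.9 and 3259 in the oxygen and fetal ductus, one of Bgn 1521 and 4280, and one of Lamc1 931.7 and 2067, with the brightest of each within 1.5-fold. With all probe sets of a gene averaged, 7 members instead of 3 were lower in the oxygen ductus, beside 4.6% of all genes. The beta-actin control ratio of 0.307 to 0.393 went with these arrays, and its part in the differences between probe sets was not tested. Col6a1, read by a single probe set, was at 35.8 in the oxygen ductus and at 461.8 or more in the other 4 states, and its value cannot be checked by a second probe set.

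**Figure D5:**
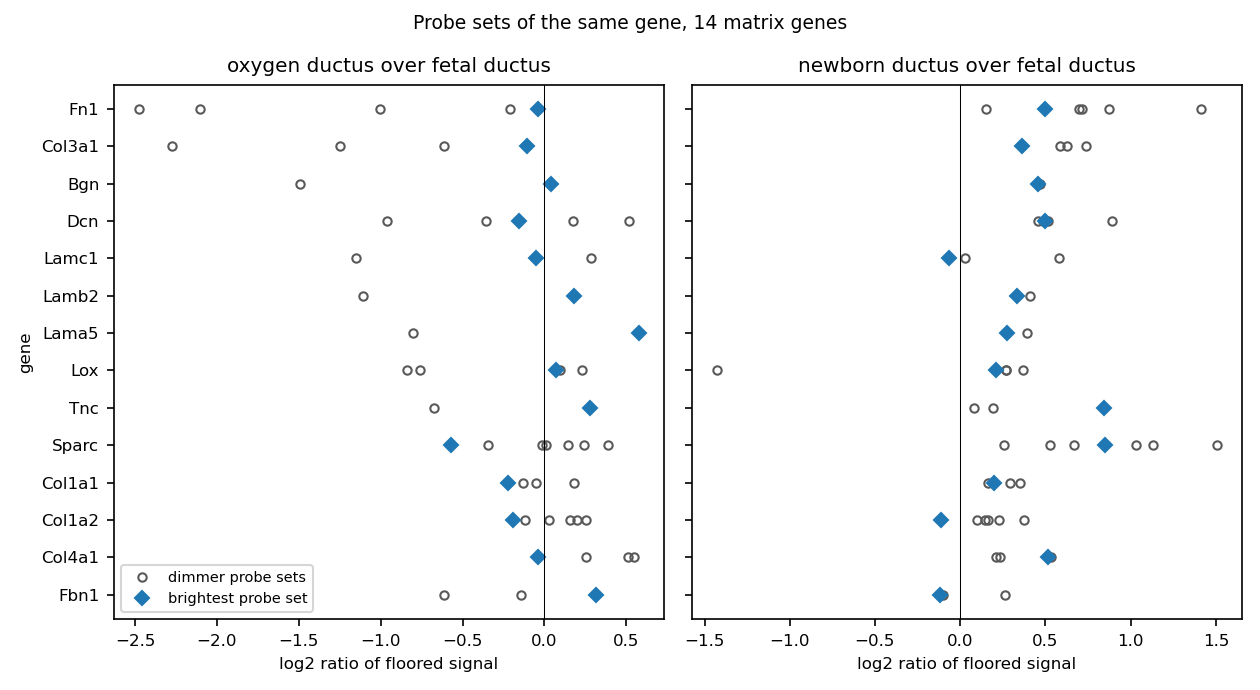
Log2 ratio of each probe set (x axis) for 14 matrix genes with several probe sets (y axis), oxygen over fetal ductus on the left and newborn over fetal ductus on the right; filled diamonds are the brightest probe set of a gene and open circles the dimmer ones, and probe sets under the floor on both arrays are left out. On the left, dimmer probe sets of Fn1, Col3a1, Bgn, Lamc1 and Lamb2 lie well below the brightest, and on the right most probe sets of a gene lie together.

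The newborn ductus was also set against the oxygen ductus, since both had met raised oxygen but only the newborn had been born. Ltbp2, Sparc, Col14a1, Col6a1, Col8a1, Spp1, Dcn and Mgp were at least 1.5-fold higher in the newborn ductus, and Col9a1, Fbn2, Col8a2, Ltbp4, Col27a1 and Fbln2 were lower. Ltbp2 was 4.06-fold higher, Sparc 2.67-fold, Col14a1 2.41-fold, Spp1 1.66-fold, Dcn 1.57-fold and Mgp 1.51-fold. The Sparc ratio was the highest of its probe sets, whose log2 ratios ran from 0.24 to 1.42. Its oxygen to fetal log2 ratio was -0.57 at that probe set and up to 0.39 at the others. The other Col14a1 probe set had a log2 ratio of newborn to oxygen ductus of 0.26, and those of Dcn ran from 0.34 to 1.42. Col6a1 was at least 1.91-fold and Col8a1 at least 1.74-fold higher. Col9a1 was 2.75-fold, Fbn2 2.24-fold, Col8a2 1.98-fold, Ltbp4 1.61-fold, Col27a1 1.55-fold and Fbln2 1.51-fold lower. Of 50 members 8 were higher and 6 lower (16% and 12%), beside 10.5% and 14.5% of all measured named genes, so the share of lower members was under that of all genes. The medians were 0.14 and -0.09. With all probe sets of a gene averaged 13 members were higher, beside 9.79% of all genes. The control ratios given above apply to the oxygen side. This comparison shares the newborn ductus array with the birth comparison, so the genes in common are not a second observation of birth.

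Genes that process, cross-link or receive the matrix were read from lists of their own, with the same call. The shares of all measured named genes at least 1.5-fold higher and lower, beside which these counts stand, were 4.2% and 5.1% in the fetal pair of vessels and 6.16% and 5.98% in the newborn pair. They were 7.56% and 9.59% for newborn over fetal ductus, 7.57% and 11% for newborn over fetal aorta, 4.44% and 5.38% for oxygen over fetal ductus and 10.5% and 14.5% for newborn over oxygen ductus. Of 16 measured genes of collagen modification and secretion, such as prolyl and lysyl hydroxylases and the chaperone Serpinh1, 0 differed by 1.5-fold between fetal ductus and aorta or between newborn and fetal ductus. In the newborn pair 1 was higher in the ductus, in the aorta 1 was lower after birth, and against the oxygen ductus the fetal ductus differed in 3 and the newborn ductus in 4. Of 15 cross-linking and microfibril genes 2 were lower in fetal ductus than in fetal aorta. Emilin2, an elastic fibre glycoprotein, read 367.9 and 976.4 there, 2.65-fold. In the newborn pair 1 was higher in the ductus and 1 lower. After birth 3 of the 15 were higher in the ductus and 0 lower (beside 7.56% and 9.59% of all genes), and 2 were higher and 3 lower in the aorta (beside 7.57% and 11%). Adamtsl4, which binds fibrillin-1, was 2.11-fold higher in the newborn aorta (1049 to 2217). Under oxygen 3 of them were higher and 1 lower, and the newborn ductus had 1 higher and 2 lower than the oxygen ductus.

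Of 8 other basement membrane genes 2 were lower in fetal ductus than in fetal aorta, and Smoc2 was 3.07-fold lower in the newborn than in the fetal aorta (3514 to 1146). In the other comparisons of that list at most 2 genes were apart in either direction. Of 16 further proteoglycans and hyaluronan genes 3 were higher and 0 lower in the newborn than in the fetal ductus, and 4 higher and 2 lower in the aorta. Aspn, a small proteoglycan that binds collagen, was 2.03-fold higher in the newborn aorta (367.2 to 746.6). Fmod, which shapes fibril diameter, was 2.13-fold higher in the newborn than in the oxygen ductus (323.1 and 151.6).

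Matricellular proteins, which signal to cells rather than bear load, held some of the larger ratios, though only 6 of the 12 on the chips were measured. Tgfbi, a TGF-beta induced adhesion protein, was 2.27-fold higher in the ductus than in the aorta in the fetus (1189 and 524.4) and 3.88-fold in the newborn (1838 and 473.2). Ccn1, an early response gene of stretched vessel wall, was at 3789 in the fetal ductus, 1666 in the oxygen ductus, 1248 in the newborn ductus, 1453 in the fetal aorta and 2321 in the newborn aorta. The fetal ductus was thus 2.61-fold above the fetal aorta, 2.27-fold above the oxygen ductus and 3.04-fold above the newborn ductus. Of the matrix receptors, Itga8, an integrin chain of smooth muscle that binds fibronectin and tenascin-C, was 2.75-fold higher in the newborn than in the fetal ductus (2863 and 1043) and 2.24-fold higher than in the newborn aorta. Of 10 measured receptors 6 were higher in the newborn than in the oxygen ductus and 0 lower, beside 10.5% and 14.5% of all genes. Among them Ddr1, a collagen receptor, was 2.53-fold higher (3267 and 1289). Of 11 receptors measured in the oxygen and fetal ductus, 1 was higher under oxygen and 3 were lower, beside 4.44% and 5.38% of all genes. The lower ones included Itga4 (2.44-fold) and Ddr1 (1.87-fold). The low beta-actin control ratios of the oxygen arrays (0.307 to 0.393) went with these values, and their part was not tested.

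The members not yet given were low or even. Col4a3, of specialised basement membranes, was at 102.3 to 310.6 with 3 states above the floor. Col10a1, the collagen of growth plate cartilage, was at 122.3 to 207.4, also with 3 states above it, and was within 1.5-fold in each pair where it was measured. Of the 4 genes under the floor in every state, Col13a1 reached 217, Col7a1 132.4, Col4a4 99.2 and Lama3 96.2. Lama4 and Lamb1 were not analysed here.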

How the data were processed

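The values were the linear signal intensities that the authors deposited, 1 file per chip type. Per the submitters' processing notes, MAS5 was used for 4 of the 5 chip A arrays; software for the others is not given in the sources used here. The deposited arrays had 2% trimmed means of 500.3 to 500.9, so they had been scaled alike, and no further scaling was applied. Control probe sets (177) were left out. Of the remaining 26202, 18178 were assigned to 1 gene by the platform annotation, 391 to several and 7633 to none. All 56 member genes were found in the current RefSeq table by gene number.

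Signals were floored at the pooled median of the chip type and put on a log2 scale. Where the dimmer signal of a pair lay under the floor the fold is a lower bound, written "at least". Genes were read at the probe set with the highest mean signal, 29 members by their sole probe set and 27 by 1 of several. Vessel and birth effects were fitted per chip type with limma (version 3.58.1, under R 4.3.3), in which vessel and stage were added over 4 arrays, using probe sets that passed the floor on 2 or more. There was 1 residual degree of freedom, with prior degrees of freedom of 6.60, 9.84 and 5.94. Adjusted p (Benjamini-Hochberg, within a chip type) under 0.05 was the threshold. P-values set the vessel and birth effects against the departure of single arrays from an additive pattern, not against the spread between animals. The fit and the pair counts were tested on simulated data.

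Alternatives were a floor at the 40th or 60th percentile, quantile normalization, the mean of all probe sets of a gene, 2-fold instead of 1.5-fold, an intensity trend in the error model and adjustment over the 3 chip types together. Leaving out the oxygen arrays, and keeping only genes without disagreement in sign among measured probe sets, were added after seeing the data. The members and gene lists were chosen with earlier results of these data known. All members could be named, with signals for the core members, those at least 1.5-fold apart and those past the limma threshold, and genes of other lists if at least 2-fold apart.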

Additional observations from a re-analysis of the deposited data

Results flagged for a closer look

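In 3 members the newborn to fetal difference had opposite signs in ductus and aorta and differed by at least 1 on the log2 scale. Each rests on 1 array per state, and the difference between vessels was not tested. For Col9a1 the ductus ratio minus the aorta ratio was -1.82 (log2 ratios of -1.43 and 0.39), for Ltbp4 it was -1.06 (-0.65 and 0.41), and for Dcn it was 1.01 (0.50 and -0.51). For Dcn the opposite signs depend on the probe set, since 2 of its 5 had ratios above 0 in both vessels (0.51 and 0.48 in ductus and aorta for one, 0.89 and 0.58 for the other).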

How the results depend on the processing

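Of 92 counts recomputed under an alternative 74 stayed within 1.5 times the reported count. Of 28 recomputed medians 18 stayed within the standard error that the estimated noise gives a mean over the members. For single members only ratios of at least 1.5-fold in the main reading were recomputed, so a change of sign was unlikely from the start. Of these 367 recomputed ratios 0 were reversed, and 34 moved by more than the noise of a ratio. At 2-fold instead of 1.5-fold, 4 members were higher and 6 lower in fetal ductus than fetal aorta (beside 0.959% and 0.959% of all genes). In the newborn pair 1 was higher and 4 lower in the ductus (beside 1.25% and 1.18%). Between newborn and fetal ductus 3 were higher and 4 lower after birth (beside 1.72% and 1.79%). In the aorta the counts were likewise 3 and 4 (beside 2.12% and 2.71%). At that fold 0 were higher and 2 lower in the oxygen than in the fetal ductus (beside 0.469% and 0.858%). In the newborn ductus 3 were higher and 2 lower than in the oxygen ductus (beside 2.59% and 3.24%). With a floor at the 60th percentile 3 members were higher in newborn ductus than in newborn aorta (beside 4.85% of all genes). The median of newborn over fetal ductus was then 0.13. With a floor at the 40th percentile 5 were lower in the oxygen than in the fetal ductus (beside 7.04%). With the mean of all probe sets of a gene 7 were lower in that pair (beside 4.6%). With the same mean 13 were higher in the newborn than in the oxygen ductus (beside 9.79%). Under that setting the medians were -0.094 (fetal ductus over aorta), 0.023 (newborn ductus over aorta), 0.14 (newborn over fetal ductus), -0.014 (newborn over fetal aorta), -0.065 (oxygen over fetal ductus) and 0.30 (newborn over oxygen ductus). Quantile normalization gave medians of 0.03 (newborn ductus over aorta), -0.0070 (newborn over fetal aorta) and -0.027 (oxygen over fetal ductus). The limma fit called 2 members for vessel with the floor at the 60th percentile (beside 33 of all 11135 probe sets). With an intensity trend it called 3 (beside 65 of 13810). For birth it called 3 with the floor at the 40th percentile (beside 229 of 16557). After quantile normalization it called 2 (Ecm1 and Sparc, beside 252 of 13651), and with an intensity trend 14 (beside 532 of 13810). Adjustment over the 3 chip types together left 4 for birth (beside 197 of 13810). Leaving out the oxygen arrays left 5, without Col26a1 (beside 234 of 13668). The causes were not tested. No paired analysis was possible because each state had 1 array per chip type. Low signals limit members near the floor to bounds.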
